A study of Mus musculus with 6 samples.

Results

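Axon guidance ligands and receptors were examined in collecting duct cells sorted from newborn mouse kidneys with and without the bradykinin B2 receptor gene Bdkrb2. The members are the semaphorins of classes 3 to 7, the A to D plexins, neuropilins 1 and 2, the Eph receptors and ephrins, Slits 1 to 3, Robo receptors 1 to 3 and the secreted netrins, taken by gene symbol. This rule took 64 of the 20887 genes named on the array. One of them, Plxna4os1, is an antisense RNA that shares the plexin prefix, and the other 63 encode 35 ligands and 28 receptors. The WT group was 3 pools of cells from Hoxb7cre+; R26RtdTomato; Bdkrb2+/+ kidneys, and the MUT group 3 pools from Hoxb7cre+; R26RtdTomato; Bdkrb2f/f kidneys. All pools were of strain C57BL/6 and postnatal day 1, and the kidneys of both groups were salt-stressed. The Cre driver of Hoxb7, a gene of the ureteric bud lineage, both deleted the floxed gene and marked the cells, which were sorted as positive for GFP and tdTomato. How many animals made up a pool, and whether pools of a group came from separate litters, is not stated in the labels, so p-values measure the spread between these pools only.

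On each of the 6 two-colour arrays, Cy5 carried the RNA of a pool and Cy3 that of WT pool 1, with no dye swap. Each level below is thus a log2 ratio to WT pool 1, and 1 array set WT pool 1 against its own RNA. Differences are MUT minus WT means of these log2 ratios. A gene was called where limma's moderated test gave an adjusted p under 0.05, with Benjamini-Hochberg adjustment over all tested probes. The Cy5 signal exceeded background clearly for 27022 to 31314 probes per array, and precision is limited by having 3 arrays a group. The targeted gene gave no check of the labels, because its single probe stayed near background in all pools. Differences are relative to the typical probe, because the median of all tested probes was near 0 after loess. Scaling instead to the 10 spike-in control probes raised the median difference of tested probes by 0.98. After loess those controls lay at -0.09, 0.28 and 0.93 in the WT pools (1 to 3). In the MUT pools (1 to 3) they lay at -0.77, -0.76 and -0.28. WT pools 2 and 3, the highest, shared row 2 of the slide, and all other arrays lay in row 1. The shift of 0.98 thus rests in part on the arrays of row 2.

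Markers of the label cleared background in all pools, but so did stroma, podocyte and proximal tubule markers. Detection thus does not single out the labelled cells. The groups differed in the markers of the label. All 13 markers of the ureteric and collecting duct lineage were tested, and 11 fell in MUT pools and none rose. Their median log2 ratio ran from -0.09 to 0.00 in WT pools and from -1.92 to -1.54 in MUT pools. Markers of several other cell types moved too, where 14% of all genes were called higher and 18.8% lower. The stroma list rose in 8 of 10 genes, with medians of -1.43 to 0.12 in WT and 1.30 to 1.57 in MUT pools, and the nephron progenitor list rose in 6 of 7 genes, with medians of 0.10 to 0.15 against 1.54 to 2.08. The endothelium list fell in 6 of 7 genes, with medians of -0.03 to 0.02 against -0.91 to -0.71 and a median difference of -0.98, the size of the spike-in shift. Of the 7 tested neuron and glia markers 2 rose (Elavl4 and Ngfr) and 1 fell (Stmn2), with medians of 0.04 to 0.05 in WT and 0.00 to 0.52 in MUT pools. All 4 intercalated cell and all 4 loop and distal tubule markers fell, and of 5 leukocyte markers 4 rose and 1 fell. Of the proximal tubule markers 2 of 5 fell (40%). Of the podocyte markers 1 of 5 rose (20%), near the share of all genes. The part of these cell types in the results below was not tested. In sorted bulk RNA, fewer cells of a type and less RNA per cell cannot be told apart.

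**Figure D1:**
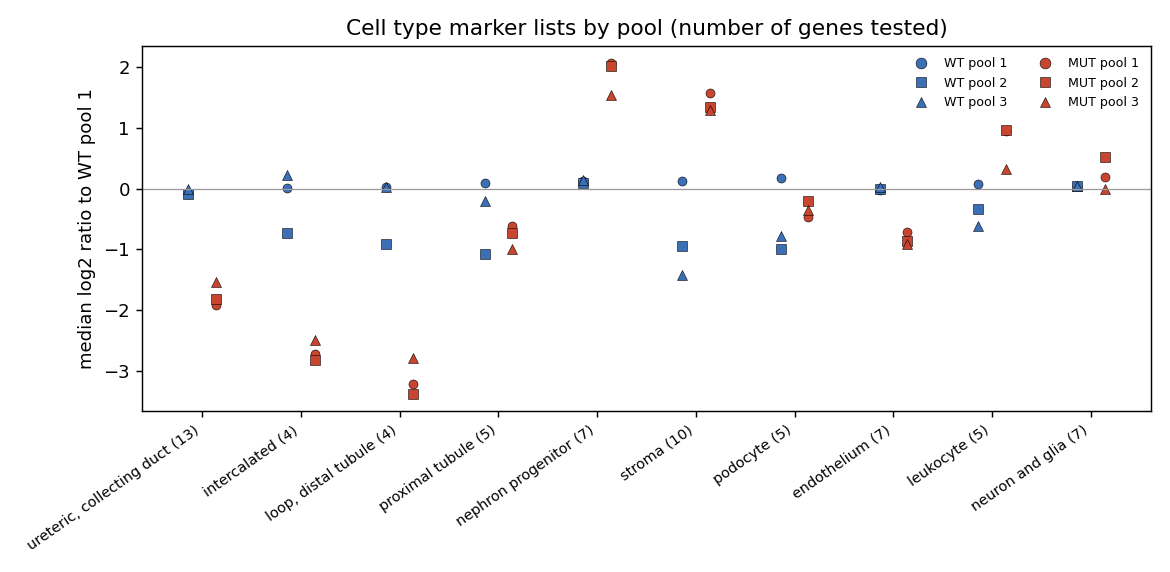
Median log2 ratio to WT pool 1 of each cell type marker list, by pool, on the vertical axis, with 3 WT pools in blue and 3 MUT pools in red and the number of tested genes in brackets. The ureteric medians of the MUT pools lie from -1.92 to -1.54, and the stroma medians of WT pools 2 and 3, at -0.94 and -1.43, lie below that of WT pool 1, at 0.12.

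Axon guidance cues were named for steering growing nerve fibres, but most tissues use them to attract, repel and sort cells. Semaphorins signal through plexins, and the secreted class 3 semaphorins do so mostly with a neuropilin as co-receptor. Ephrins are membrane-bound ligands of the Eph receptor tyrosine kinases, Slits are secreted ligands of Robo receptors, and netrins are secreted and act on Dcc and the Unc5 receptors. In the developing kidney, Slit2 and Robo2 restrict where the ureteric bud grows out, Sema3a affects branching and glomerular vessels, and ephrin-B2 and EphB4 mark arterial and venous endothelium.

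Of the 64 members, 58 passed the filter on dim probes and were tested. Epha6, Epha8, Epha10, Ntn5, Plxnb3 and Plxna4os1 did not pass it, and no level is given for them. Of the 58, 28 were called (48.3%), beside 32.8% of all 14586 tested genes. Of these 15 rose in MUT pools (25.9%, beside 14% of all genes) and 13 fell (22.4%, beside 18.8%). The median difference over the tested members was 0.02, and that of all tested genes was -0.02. The WT and MUT pools did not overlap in 37 members (63.8%, beside 52.6% of all genes). Among the 58, 4 were called with a rise of at least 2-fold, beside 3.37% of all genes, and 1 with such a fall, beside 5.23%. Among the 34 tested ligands 7 rose and 9 fell, and among the 24 tested receptors 8 rose and 4 fell. The fall in the 13 members is relative to the typical probe, since with the spike-in controls none was called and their differences ran from -0.03 to 0.60. That scaling called 33 of the 58 members higher and 0 lower, beside 9043 of all 14586 tested genes called higher. Median centring in place of loess moved the median tested probe by 0.23 and called 20 members higher and 3 lower. Over all 14586 tested genes it called 3581, of which 2658 were higher. Of all called genes 74.2% were higher with median centring and 98.3% with the spike-in controls.

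**Figure D2:**
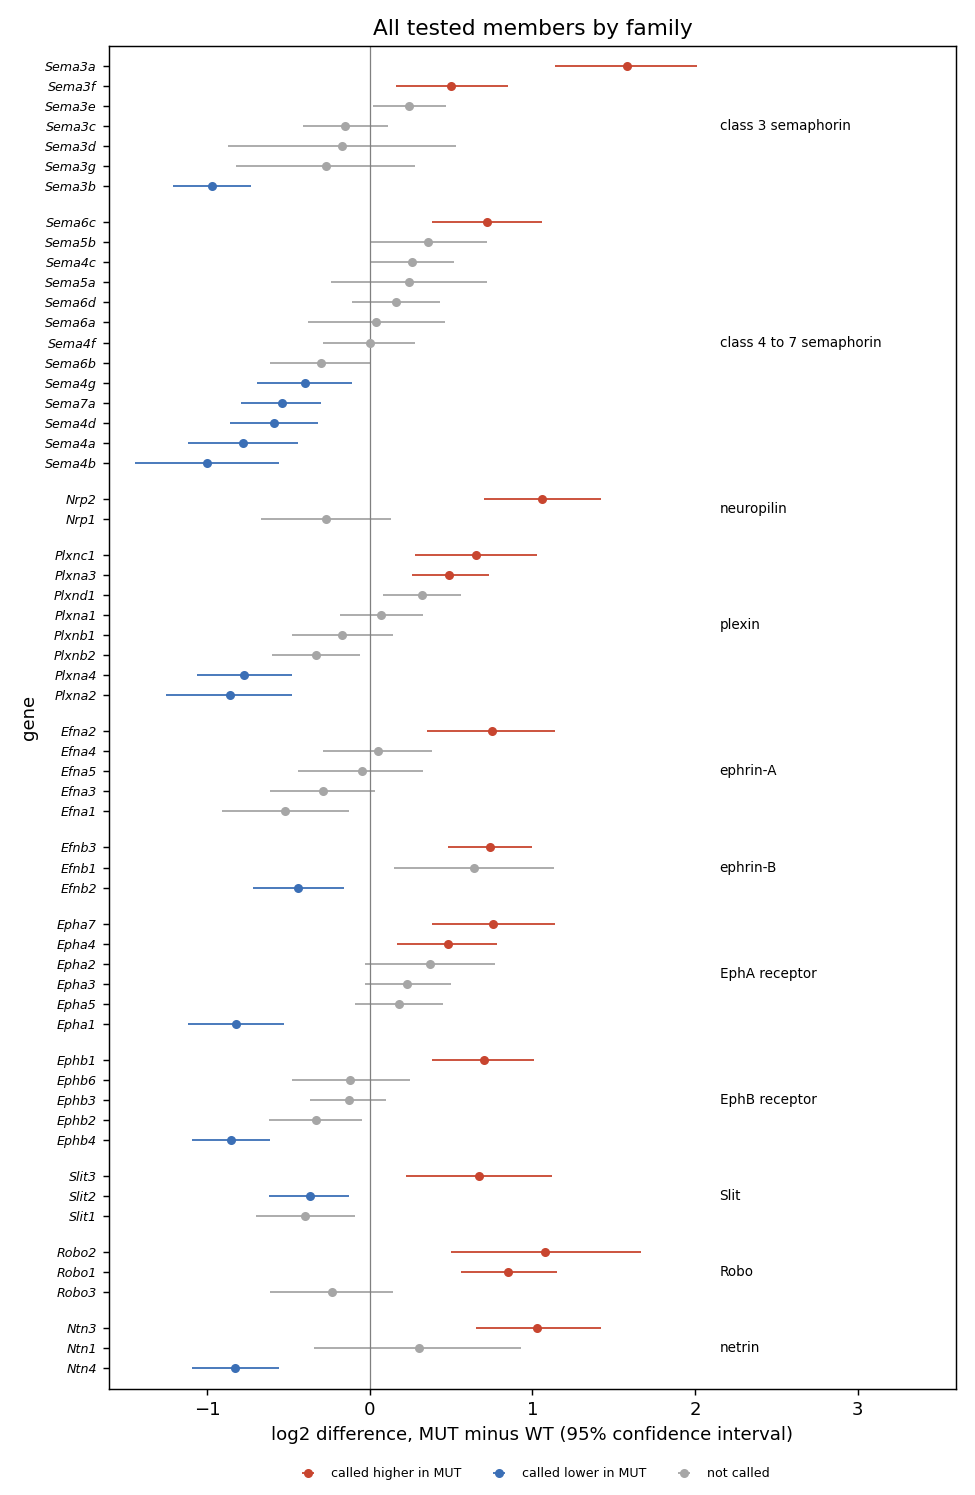
Log2 difference, MUT minus WT, of the 58 tested members on the horizontal axis with its 95% confidence interval, by family on the vertical axis, after loess. The 15 genes called higher are red, the 13 called lower are blue and the 30 not called are grey; Sema3a, at 1.58, stands highest and Sema4b, at -1.0, lowest, and with the spike-in controls Sema4b was at -0.03 and the other 12 blue genes were at or above 0.00.

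Sema3a, a secreted repellent that binds neuropilin 1, had the largest difference of all members. Its log2 ratios were 0.09, -0.18 and -0.45 in the WT pools (1 to 3) and 1.56, 1.57 and 1.06 in the MUT pools (1 to 3). All MUT pools lay well above all WT pools. The gene was 2.99-fold higher in MUT pools (log2 1.58 ± 0.19 SE, n = 3 pools per group, limma adjusted p = 0.00107). Its second probe, at -0.09, -0.01 and -0.17 in WT and 0.42, 0.88 and 0.59 in MUT pools, did not clear background in any WT pool, so no fold is given for it. The first probe cleared background in 2 of the 3 WT pools. Both probes thus passed the filter on dim probes only through the MUT pools, where the gene was higher. In the authors' value table, which adds no offset to dim signals, the Sema3a difference was 3.6.

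The other class 3 semaphorins did not move together. Sema3b, a secreted semaphorin of many epithelia, was at 0.03, 0.04 and 0.18 in WT pools and at -0.77, -0.93 and -0.97 in the MUT pools (1 to 3). The pools were tight in both groups and did not overlap. It fell by 0.97 ± 0.10 (SE, n = 3 per group, limma adjusted p = 0.000751), but was at 0.00 with the spike-in controls. Sema3f, which acts through neuropilin 2, was at -0.05, 0.38 and 0.19 in WT pools and 0.89, 0.48 and 0.67 in MUT pools. The lowest MUT pool lay close above the highest WT pool, and Sema3f rose by 0.50 ± 0.15 (SE, limma adjusted p = 0.0428). Sema3c, Sema3d, Sema3e and Sema3g were not called. Sema3c was at 0.28, 0.43 and 0.13 in WT and 0.06, 0.11 and 0.21 in MUT pools (difference -0.15), and Sema3g at 0.17, -0.39 and -0.42 in WT and -0.96, -0.24 and -0.26 in MUT pools (-0.27). Sema3d was at 0.09, 0.93 and 0.36 in WT and -0.35, 0.64 and 0.58 in MUT pools (-0.17). The pools of these 3 genes overlapped at these probes. The second probe of Sema3c was at 0.12, 0.21 and 0.18 in WT and -0.85, -0.01 and -0.07 in MUT pools, without overlap and without a call (difference -0.48, limma adjusted p = 0.138). Sema3e, a ligand of Plxnd1, was at -0.01, -0.12 and -0.17 in WT and 0.17, 0.17 and 0.09 in MUT pools without overlap (0.24, limma adjusted p = 0.102), with a WT signal that cleared background on 1 array.

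Of the 2 neuropilins, the co-receptors that give class 3 semaphorins their binding, Nrp2 rose and Nrp1 was not called. Nrp2 was at 0.06, -0.26 and -0.55 in the WT pools (1 to 3) and at 0.77, 0.85 and 0.79 in the MUT pools (1 to 3). The MUT pools were nearly equal, while WT pools 2 and 3 lay below WT pool 1. The difference was 1.06 ± 0.16 (SE, n = 3 per group, 2.08-fold, limma adjusted p = 0.00252), and 0.68 at the second probe (limma adjusted p = 0.0227). Nrp1, which also binds VEGF on endothelium, was at 0.09, -0.19 and -0.08 in WT and -0.69, -0.26 and -0.04 in MUT pools, which overlapped (difference -0.27, 95% confidence interval -0.67 to 0.13, limma adjusted p = 0.289).

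The plexins, the signalling receptors of semaphorins, split in both directions. Plxna2 was at 0.56, -0.03 and 0.16 in WT pools and -0.80, -0.50 and -0.59 in MUT pools. It fell by 0.86 ± 0.17 (SE, limma adjusted p = 0.00784), but with the spike-in controls its difference was above 0, at 0.11. Plxna4 was at 0.02, -0.02 and 0.13 in WT and -0.96, -0.61 and -0.60 in MUT pools, a fall by 0.77 ± 0.13 (SE, limma adjusted p = 0.00402). With those controls the Plxna4 difference was above 0, at 0.21. These A plexins are both partners of neuropilins, and so is Plxna3, which moved the other way after loess (1.47 with those controls). Plxna3 was at 0.12, -0.02 and -0.10 in WT and 0.52, 0.52 and 0.45 in MUT pools and rose by 0.49 ± 0.10 (SE, limma adjusted p = 0.0103). Plxnc1, the receptor of Sema7a, rose by 0.65 ± 0.16 (SE, limma adjusted p = 0.0217), from 0.02, 0.57 and 0.04 in WT to 0.97, 0.77 and 0.83 in MUT pools. In the authors' value table the Plxnc1 difference was 1.1 and was not called (limma adjusted p = 0.0572). Plxna1, Plxnb1, Plxnb2 and Plxnd1 were not called, with differences from -0.33 to 0.32. Plxna1, the remaining A plexin, was at -0.21, -0.07 and 0.04 in WT and -0.11, 0.06 and 0.03 in MUT pools (difference 0.07). Plxnd1, the receptor of Sema3e in vessels, lay at -0.23, -0.12 and -0.35 in WT and 0.13, 0.02 and 0.12 in MUT pools, without overlap but with a limma adjusted p of 0.0536.

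**Figure D3:**
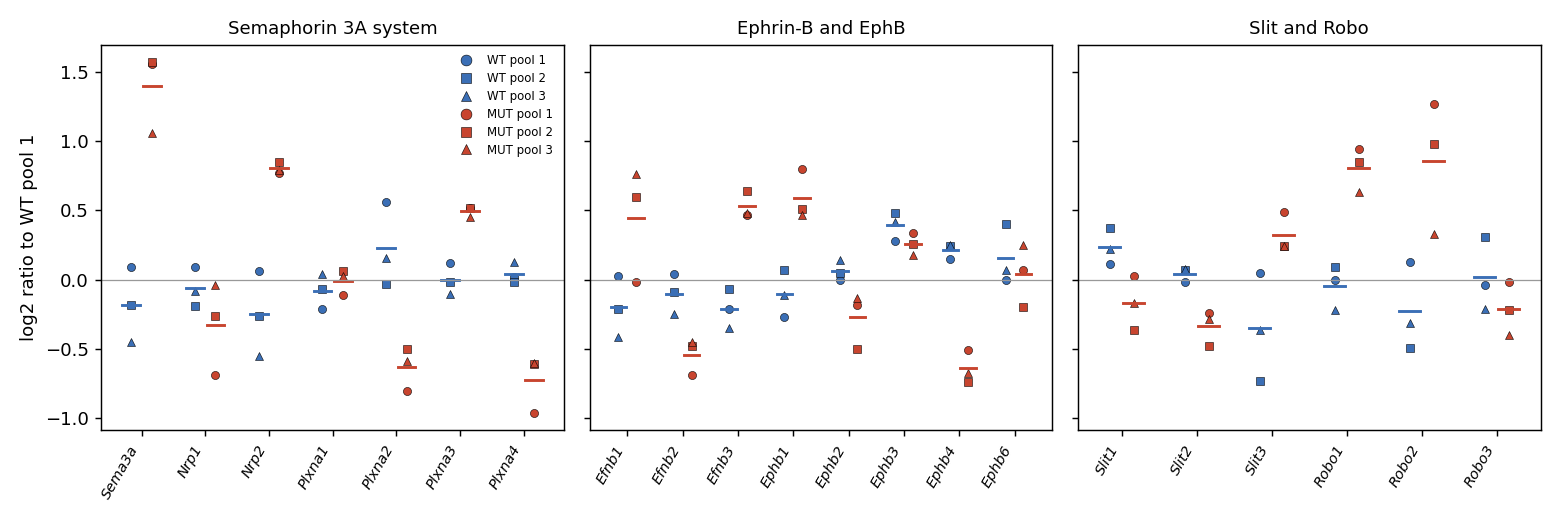
Log2 ratio to WT pool 1 on the vertical axis for Sema3a with neuropilins and A plexins, for ephrin-B with EphB genes and for Slit with Robo genes. Each symbol is a pool, blue for WT and red for MUT, and bars are means of 3 pools; Sema3a and Nrp2 lie higher in all MUT pools while Plxna2 and Plxna4 lie lower after loess, the last pair at 0.11 and 0.21 with the spike-in controls.

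The membrane-bound and GPI-anchored semaphorins form the largest family here. Of 13 tested genes of classes 4 to 7, 5 fell (38.5%, beside 18.8% of all genes), 1 rose and 7 were not called, although with the spike-in controls none of the 5 was called and their differences ran from -0.03 (Sema4b) to 0.57 (Sema4g). Sema4b was at 0.22, 0.25 and 0.33 in the WT pools (1 to 3) and -1.15, -0.34 and -0.71 in the MUT pools (1 to 3). MUT pool 1 was the lowest by far. The mean fell by 1.0 ± 0.19 (SE, n = 3 per group, limma adjusted p = 0.00735). Sema4a was at 0.11, -0.19 and 0.08 in WT and -0.83, -0.98 and -0.53 in MUT pools, a fall by 0.78 ± 0.15 (SE, limma adjusted p = 0.00716). With those controls the Sema4a difference was above 0, at 0.20. Sema4d, a ligand of Plxnb1, was at 0.01, 0.23 and 0.17 in WT and -0.61, -0.43 and -0.32 in MUT pools, a fall by 0.59. With those controls the Sema4d difference was above 0, at 0.39. Sema7a, the GPI-anchored member, was at -0.10, -0.05 and 0.09 in WT and -0.55, -0.66 and -0.47 in MUT pools, a fall by 0.54. Its receptor Plxnc1 moved the other way after loess. With those controls both differences were above 0, at 0.43 for Sema7a and 1.63 for Plxnc1. Sema4g was at -0.13, -0.11 and 0.01 in WT and -0.33, -0.40 and -0.70 in MUT pools, a fall by 0.40 after loess (limma adjusted p = 0.048). With those controls the Sema4g difference was above 0, at 0.57. Sema6c, a transmembrane semaphorin, rose by 0.72 ± 0.15 (SE, limma adjusted p = 0.01), from 0.09, 0.00 and -0.43 in WT to 0.66, 0.53 and 0.63 in MUT pools, but its second probe was at 0.13 (limma adjusted p = 0.519).

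The 7 that were not called were Sema4c, Sema4f, Sema5a, Sema5b, Sema6a, Sema6b and Sema6d, with differences from -0.30 to 0.36. Sema6b was at -0.30 after loess, but at -0.79 in the authors' value table, where it was called (limma adjusted p = 0.0114). Probes decided the call of Sema5b, a transmembrane semaphorin. Its brightest probe gave 0.36 (limma adjusted p = 0.13) and its other probe 0.67 (limma adjusted p = 0.0114), with 0.24, 0.05 and -0.23 in WT and 0.68, 0.56 and 0.81 in MUT pools. The probes of Sema6d had opposite signs, 0.16 and -0.25, and neither was called. At the first, Sema6d was at 0.32, 0.51 and 0.47 in WT and 0.59, 0.76 and 0.44 in MUT pools. At the other it was at 0.01, -0.18 and 0.22 against -0.47, -0.21 and -0.03. The groups overlapped at both probes.

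The Slit and Robo genes also split. Robo2, the Slit receptor of nephrogenic mesenchyme, was at 0.13, -0.49 and -0.31 in the WT pools (1 to 3) and 1.27, 0.98 and 0.33 in the MUT pools (1 to 3). The MUT pools were spread widely, with pool 3 closest to the WT pools. The gene rose 2.11-fold (log2 1.08 ± 0.25 SE, n = 3 per group, limma adjusted p = 0.0172), while its second probe, at 0.52, was not called (limma adjusted p = 0.214), with MUT pool 1 at -0.52 there. Robo2 lost its call without WT pool 2 (limma adjusted p = 0.0647) or WT pool 3 (0.0746). Robo1 was at 0.00, 0.09 and -0.22 in WT and 0.94, 0.85 and 0.63 in MUT pools, and rose by 0.85 ± 0.13 (SE, limma adjusted p = 0.00284). Robo3 was at -0.04, 0.31 and -0.21 in WT and -0.02, -0.22 and -0.40 in MUT pools, which overlapped, and was not called (difference -0.23, 95% confidence interval -0.61 to 0.14).

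Among their ligands, Slit3 rose and Slit2 fell. Slit3 was at 0.05, -0.73 and -0.36 in WT and 0.49, 0.24 and 0.24 in MUT pools, where WT pool 1 came close to the MUT pools. Its difference of 0.67 ± 0.19 (SE, limma adjusted p = 0.0381) became 0.48 when WT pool 2 was left out and 0.66 when WT pool 3 was, and was called in neither case (limma adjusted p = 0.0927 and 0.124). Slit2 was at -0.02, 0.07 and 0.08 in WT and -0.24, -0.48 and -0.28 in MUT pools. The fall was small, by 0.37 ± 0.11 (SE, limma adjusted p = 0.0346), and the value was 0.60 with the spike-in controls. Slit1, better known from the nervous system, was at 0.11, 0.37 and 0.22 in WT and 0.03, -0.36 and -0.17 in MUT pools, without overlap, and missed the call (difference -0.40, limma adjusted p = 0.0596).

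Within the B class of ephrins and Eph receptors, Efnb2 and its receptor Ephb4 fell and Efnb3 and Ephb1 rose. Ephb4 was at 0.15, 0.24 and 0.25 in the WT pools (1 to 3) and -0.51, -0.74 and -0.67 in the MUT pools (1 to 3). Both groups were tight and far apart. It fell by 0.85 ± 0.10 (SE, n = 3 per group, limma adjusted p = 0.00118), and its second probe was at -0.34 without a call (limma adjusted p = 0.186). With the spike-in controls the Ephb4 difference at the first probe was above 0, at 0.13. Efnb2 was at 0.04, -0.09 and -0.25 in WT and -0.69, -0.48 and -0.45 in MUT pools. It fell by 0.44 ± 0.12 (SE, limma adjusted p = 0.0306), and by 0.49 at its second probe. With those controls the Efnb2 difference at the first probe was above 0, at 0.54. Of the endothelial markers 6 of 7 fell in the same pools, beside 18.8% of all genes. Their median difference was -0.98, the size of the spike-in shift. Other lists fell more, with median differences of -1.67 (ureteric and collecting duct), -2.51 (intercalated) and -2.83 (loop and distal tubule). The stroma and nephron progenitor lists rose (1.96 and 1.70). The part of any of these cells in the fall of Efnb2 and Ephb4 was not tested.

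Efnb3, a transmembrane ephrin, was at -0.21, -0.07 and -0.35 in WT and 0.47, 0.64 and 0.48 in MUT pools, a rise by 0.74 ± 0.11 (SE, limma adjusted p = 0.003). Ephb1 was at -0.27, 0.07 and -0.11 in WT and 0.80, 0.51 and 0.47 in MUT pools, a rise by 0.70 ± 0.14 (SE, limma adjusted p = 0.00823). Neither gene's pools overlapped. Efnb1 was at 0.03, -0.21 and -0.41 in WT and -0.02, 0.60 and 0.76 in MUT pools, so MUT pool 1 lay among the WT pools, and the difference of 0.64 was not called (limma adjusted p = 0.0608). Without MUT pool 1 it was called at 0.87 (limma adjusted p = 0.00127). Ephb2, Ephb3 and Ephb6 were not called. Ephb2 was at 0.00, 0.05 and 0.14 in WT and -0.18, -0.50 and -0.13 in MUT pools, without overlap (difference -0.33, limma adjusted p = 0.0856). Ephb3 was at 0.28, 0.48 and 0.42 in WT and 0.34, 0.26 and 0.18 in MUT pools (-0.13). Ephb6, a receptor without kinase activity, was at 0.00, 0.40 and 0.07 in WT and 0.07, -0.20 and 0.25 in MUT pools (-0.12). The pools of Ephb3 and Ephb6 overlapped.

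In the A class, 1 of 5 ephrins and 3 of 6 tested receptors were called, beside 32.8% of all genes. Efna2 was the ephrin-A that was called, at -0.23, 0.27 and -0.22 in WT and 0.53, 0.93 and 0.59 in MUT pools, a rise by 0.75 ± 0.17 (SE, limma adjusted p = 0.0161). Efna3 was at -0.05, -0.05 and 0.15 in WT and -0.51, -0.28 and -0.05 in MUT pools (difference -0.29). Efna4 was at -0.17, 0.33 and -0.04 in WT and 0.00, 0.09 and 0.16 in MUT pools (0.05), and Efna5 at 0.00, -0.03 and 0.11 in WT and -0.39, 0.03 and 0.27 in MUT pools (-0.05). These 3 ephrins overlapped between groups and were not called. Efna1 was at 0.12, 0.30 and 0.07 in WT and 0.01, -0.50 and -0.59 in MUT pools, without overlap and just short of a call (limma adjusted p = 0.0554). It was called without MUT pool 1 (-0.71, limma adjusted p = 0.0012).

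Of the 6 tested EphA receptors, Epha4 and Epha7 rose and Epha1 fell. Epha1, an epithelial member of the family, was at 0.02, 0.27 and 0.20 in WT and -0.59, -0.87 and -0.52 in MUT pools, a fall by 0.82 ± 0.13 (SE, limma adjusted p = 0.00322). With the spike-in controls the Epha1 difference was above 0, at 0.15. Epha4 was at 0.00, 0.11 and -0.07 in WT and 0.74, 0.31 and 0.43 in MUT pools, a rise by 0.48 ± 0.13 (SE, limma adjusted p = 0.0324). For Epha7 the 3 tested probes disagreed. The brightest was at 0.02, 0.09 and -0.28 in WT and 1.02, 0.54 and 0.56 in MUT pools (difference 0.76 ± 0.16 SE, limma adjusted p = 0.0123). The others were at 0.17 and -0.17 and were not called (limma adjusted p = 0.262 and 0.526), so the rise rests on 1 probe, and the mean of the 3 probes, 0.25, was not called (limma adjusted p = 0.0931). The remaining probes of Epha7 were at 0.10, 0.05 and 0.05 in WT and 0.34, 0.25 and 0.11 in MUT pools, and at 0.05, 0.33 and 0.12 in WT and -0.41, 0.30 and 0.09 in MUT pools. Epha2, Epha3 and Epha5 were not called. Epha2 was at -0.04, 0.44 and 0.09 in WT and 0.82, 0.32 and 0.46 in MUT pools (difference 0.37), Epha3 at 0.02, -0.06 and -0.27 in WT and 0.02, 0.22 and 0.15 in MUT pools (0.23), and Epha5 at 0.47, 0.56 and 0.40 in WT and 0.51, 0.83 and 0.65 in MUT pools (0.18). The Epha3 signal cleared background in 1 of the 3 WT pools and in all 3 MUT pools.

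The netrins gave 1 rise, 1 fall and 1 gene whose probes disagreed. Ntn3 was at -0.02, -0.33 and -0.40 in WT and 1.05, 0.81 and 0.49 in MUT pools, a 2.05-fold rise (log2 1.03 ± 0.17 SE, n = 3 per group, limma adjusted p = 0.00384), and 1.74 in the authors' value table. Ntn4, a netrin of basement membranes, was at 0.10, -0.22 and 0.01 in WT and -0.93, -0.82 and -0.85 in MUT pools. The MUT pools were nearly equal and far below the WT pools. It fell by 0.83 ± 0.11 (SE, limma adjusted p = 0.00199), and was at -2.69 in the authors' value table and at 0.15 with the spike-in controls after loess. Its probe was well above background on 2 of 3 MUT arrays, so it passed the filter only through the WT pools, where it was higher. Ntn1 was at -0.11, -0.57 and -0.16 in WT and 0.51, 0.16 and -0.62 in MUT pools. Its MUT pools ran from above to below all WT pools, and its second probe had the opposite sign (0.30 against -0.22, limma adjusted p = 0.458 and 0.378). That probe was at 0.01, -0.10 and 0.26 in WT and -0.43, 0.15 and -0.20 in MUT pools.

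**Figure D4:**
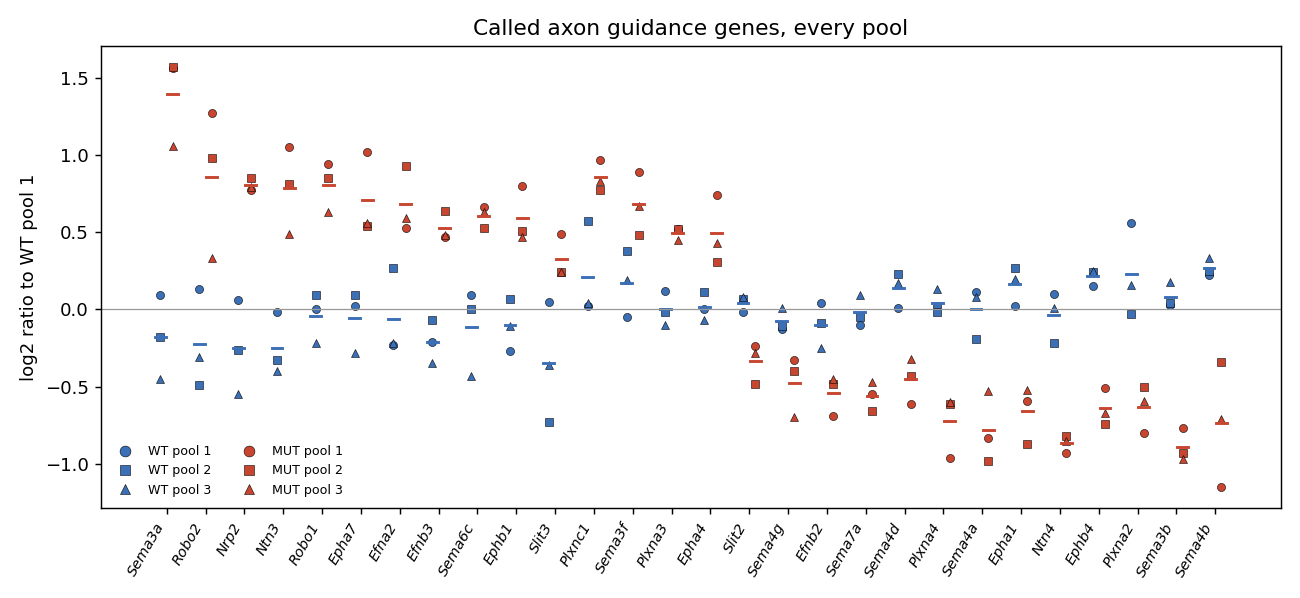
Log2 ratio to WT pool 1 on the vertical axis in each of the 6 pools for the 28 called members, ordered by difference, with WT pools in blue, MUT pools in red and bars for means of 3 pools. The groups do not overlap for any of the 28; the 13 genes on the right lie lower in MUT pools after loess, and 12 of them were at or above 0.00 with the spike-in controls.

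WT pools 2 and 3 shared row 2 of the slide, and the 4 other arrays lay in row 1, per the file headers. Among the 15 members that rose, WT pools 2 and 3 both lay below WT pool 1 in 7 (46.7%), beside 52.8% of the 2040 genes called higher. Among the 13 that fell, both lay above WT pool 1 in 8 (61.5%), beside 23.9% of the 2737 genes called lower. With the row as a block, WT pool 1 is the WT pool in the row of the MUT pools. In that fit 3 of the 58 tested members were called higher and 4 lower. Over all 14586 tested genes 1587 were called, 501 of them higher. The members called higher were Sema3a (1.31), Nrp2 (0.75) and Ephb1 (0.86), and those called lower were Ephb4 (-0.79), Ntn4 (-0.97), Plxna2 (-1.19) and Sema3b (-0.92). In that fit the difference is the MUT mean less WT pool 1. The pools of the 28 called members do not overlap, so their signs could not change there. The size could, and Slit3 went from 0.67 to 0.27.

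Leaving out 1 pool ended further calls. Without WT pool 3, 7 members were called higher, beside 996 of all 14586 tested genes. Efna2, Epha4, Epha7, Plxna3, Plxnc1, Robo2, Sema3f and Slit3 were not called. Without WT pool 1, Efna2, Epha4, Plxnc1 and Sema3f were not called higher, and without WT pool 2, Epha4, Robo2 and Slit3 were not. When any WT pool or MUT pool 2 was left out, Efnb2, Sema4g and Slit2 were not called lower, and Sema4g and Slit2 not without MUT pool 3. Efna2, Robo2 and Slit3 were not called without MUT pool 2, and Epha4, Plxnc1, Sema3f and Slit3 not without MUT pool 3. Without MUT pool 1, Sema3f was not called, while 18 members were called lower. Over all 14586 tested genes 5659 were called there, 2349 of them higher. In the authors' value table Epha4, Plxnc1, Sema3f and Slit3 were not called higher, and Efnb2, Sema4g and Slit2 were not called lower. Nrp2 and Ephb1 were called higher under all 18 alternatives. Sema3a was called higher under the 17 in which it was tested. It passed the filter on dim probes only through the MUT pools, where it was higher. It was not tested where background had to be cleared on all 6 arrays.

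**Figure D5:**
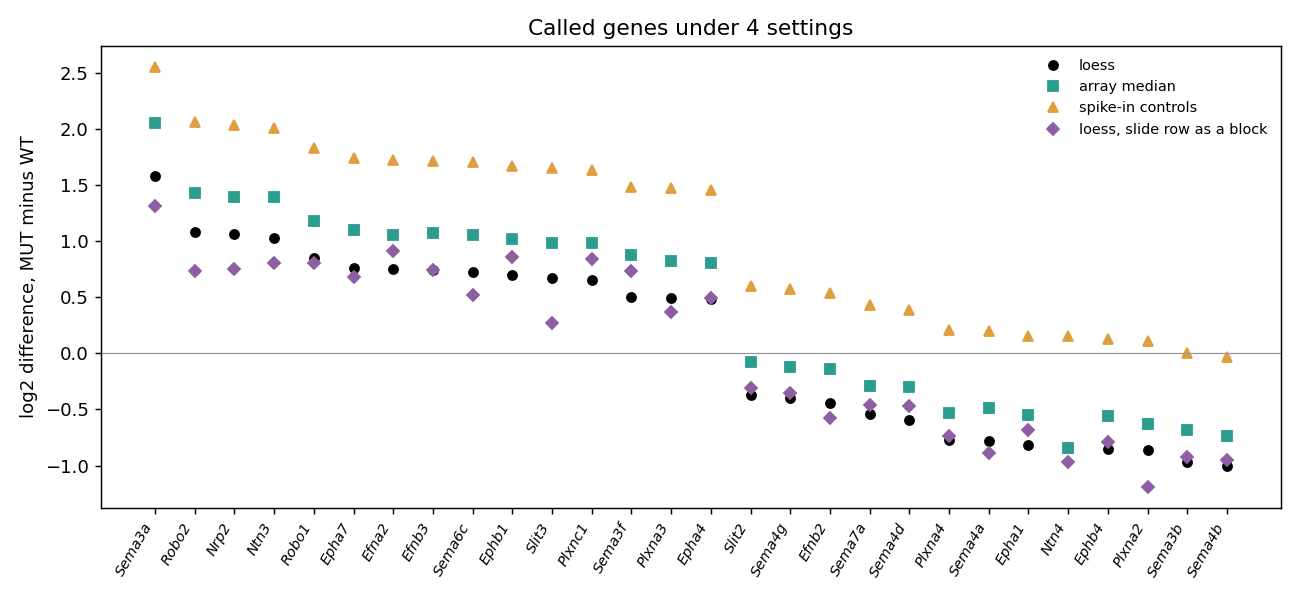
Log2 difference, MUT minus WT, on the vertical axis for the 28 called members after loess, with arrays centred on their median, with scaling to the 10 spike-in controls, and after loess with the slide row as a block. The 15 risers lie above 0 in all 4 settings, and the fallers move to between -0.03 and 0.60 with the spike-in controls. With the slide row as a block the signs could not change, because that difference is the MUT mean less WT pool 1 and no pools overlap.

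Promoter sequences are shown for members with large differences in either direction. RefSeq promoter windows of build GRCm38.p6 were found for 55 of the 64 members, not for Sema3b, and the 250 bases before each start were used. Each sequence below is written along the gene's strand, and capitals mark the GC box GGGCGG, a binding motif of Sp factors, on either strand (CCGCCC on the other). Sema3a, the gene with the largest rise, is shown at chr5:13396534-13396783 (+), and Nrp2, a receptor that rose, at chr1:62703067-62703316 (+). Plxna2, a receptor that fell relative to the typical probe, is shown at chr1:194619579-194619828 (+). With the spike-in controls the Plxna2 difference was above 0, at 0.11. Sema4b, the gene with the largest fall relative to the typical probe (-0.03 with those controls), is shown at the first of its 2 listed starts, at chr7:80186620-80186869 (+).
Sema3a: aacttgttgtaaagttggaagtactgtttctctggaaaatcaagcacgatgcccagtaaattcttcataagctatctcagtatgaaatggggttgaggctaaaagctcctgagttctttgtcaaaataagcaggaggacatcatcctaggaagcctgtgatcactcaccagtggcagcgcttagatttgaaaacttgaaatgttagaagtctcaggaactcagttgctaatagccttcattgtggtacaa
Nrp2: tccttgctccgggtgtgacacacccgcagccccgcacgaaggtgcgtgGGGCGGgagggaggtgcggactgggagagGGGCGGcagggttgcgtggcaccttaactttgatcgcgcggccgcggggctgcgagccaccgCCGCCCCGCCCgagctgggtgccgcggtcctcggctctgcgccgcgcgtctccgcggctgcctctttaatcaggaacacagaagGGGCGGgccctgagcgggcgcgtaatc
Plxna2: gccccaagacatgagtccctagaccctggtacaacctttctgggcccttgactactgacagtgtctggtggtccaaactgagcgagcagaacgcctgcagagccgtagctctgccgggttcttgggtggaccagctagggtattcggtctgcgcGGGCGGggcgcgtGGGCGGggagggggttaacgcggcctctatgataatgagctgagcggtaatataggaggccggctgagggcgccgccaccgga
Sema4b: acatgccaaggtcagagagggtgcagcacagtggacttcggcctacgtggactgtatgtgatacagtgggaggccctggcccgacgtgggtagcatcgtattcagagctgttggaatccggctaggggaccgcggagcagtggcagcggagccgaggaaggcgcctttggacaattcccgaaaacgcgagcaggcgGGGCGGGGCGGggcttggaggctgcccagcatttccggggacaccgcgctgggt

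The Sema3a window held no GC box and 2 CpG pairs, with 40.8% G and C. The Nrp2 window held 5 GC boxes and 32 CpG pairs. Plxna2 and Sema4b each held 2 GC boxes, with 18 and 20 CpG pairs, and the 3 listed Robo2 windows held none. Over all 32851 listed windows of this length, 32.7% held a GC box. For members called higher it was 10 of 17 windows, from 13 genes (58.8%). For members called lower it was 14 of 17 windows, from 11 genes (82.4%), and for members not called 24 of 32, from 26 genes (75%). A gene with several listed starts, such as Robo2, gives several windows, so the windows are not independent and the difference between these sets was not tested. TATAAA was in 0 of 17 windows of the first set, 2 of 17 of the second and 12.4% of all windows, and CCAAT in 5 of 17 of each and 33.8% of all (both strands). The windows of members were richer in CpG pairs than the typical window, with medians of 15 and 6, whether or not the gene was called.

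Other genes of the same pathways were taken from a list of 79 receptors, adaptors and cytoskeletal regulators, of which 71 were tested. Of these 11 rose (15.5%, beside 14% of all genes) and 14 fell (19.7%, beside 18.8%). The share called, 35.2%, was near the 32.8% of all genes, and the median difference was 0.02. With the spike-in controls 40 were called higher and none lower (limma, 0 also at an unadjusted p under 0.05). Over all 14586 tested genes 9043 were called higher there. The largest rise was that of Unc5c, a netrin receptor that mediates repulsion. It was at 0.03, -0.20 and -0.85 in WT pools and 1.78, 2.11 and 1.76 in MUT pools, a 4.67-fold difference (log2 2.22 ± 0.22 SE, n = 3 per group, limma adjusted p = 0.000581). The netrin receptors Unc5a and Unc5b were not called, at -0.22 and -0.17, and Dcc, the attractive netrin receptor, was at 0.23, -0.17 and -0.02 in WT and -1.94, -0.33 and -0.78 in MUT pools (difference -1.03, limma adjusted p = 0.0738).

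Dpysl4, of the collapsin response mediator family, rose 4.14-fold, from 0.28, 0.16 and -0.30 in WT to 2.17, 2.11 and 2.00 in MUT pools (limma adjusted p = 0.000365), and Dpysl3 of the same family rose by 1.0. Of the other members of that family, Dpysl2 rose by 0.85, and Dpysl5 and Crmp1 were not called, at 0.27 and -0.19. Mical1, an actin-oxidising enzyme that binds plexins, rose by 1.12. Ntng1, a membrane-anchored netrin G, rose by 1.20, but its WT signal cleared background in 1 pool of 3. It thus passed the filter only through the MUT pools, and its difference in the authors' value table was 2.86. The falls were led by Ngef, an ephexin that acts downstream of EphA receptors, by 1.44 ± 0.13 (SE, limma adjusted p = 0.000475), and Nrcam, an adhesion molecule of semaphorin receptor complexes, by 1.35. Both kept a negative sign with the spike-in controls, at -0.47 and -0.37. Vav3, an exchange factor downstream of Eph receptors, fell by 1.13, Robo4, the endothelial Robo, by 1.04 and Met, the HGF receptor that associates with plexin B, by 1.02, and these were at -0.15, -0.06 and -0.04 with those controls.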

How the data were processed

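Total RNA of 6 pools was measured on two-colour Agilent arrays, 1 slide scanned on 1 day. Per the file headers, the scanner output gives each spot's intensity in both dyes as a median, with a local background. The submitters' processing notes name Agilent Feature Extraction, version 10.7.3.1. The authors' value table holds the scanner software's log10 ratio of Cy5 to Cy3, with a median of 0 on each array. It differed from the scanner files by at most 0.00499. Its centring, scale and direction are therefore those of that software.

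Background was corrected by normexp (offset 50), which shrinks differences of dim probes, and ratios were normalized by loess with control spots at weight 0. Outlier spots were left out. The 29003 probes whose Cy5 signal was well above background throughout at least 1 group were tested by limma 3.58.1 (lmFit, eBayes) in R 4.3.3. Probe accessions matched to RefSeq symbols named 27509 probes, and 28172 had none. A gene's value is that of its brightest tested probe. On simulated data, where few probes changed and 115 of 29003 were called, the procedure recovered 7.46% of changes of log2 0.5. It recovered 67.2% of log2 1 and 97% of log2 2. Their median estimates were 0.356, 0.793 and 1.74. In the data 7584 probes were called, so the adjustment was less strict than in the simulation. The recovery rates therefore do not carry over to these data. A gene that was not called may still have changed by a small amount. Values in every pool are given for called members without overlap, those with probes of opposite sign, and partners of called members. Of other pathway genes the 5 largest rises and falls were named, and Dcc, Unc5a, Unc5b, Dpysl2, Dpysl5, Crmp1 and members just short of a call were added after their values were seen. Members and lists were chosen with earlier results of these data known.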

Additional observations from a re-analysis of the deposited data

How the results depend on the processing

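The counts of members called (15 higher, 13 lower) and of other pathway genes (11 higher, 14 lower) depended on the scaling and on the slide row. With median centring, 3 members and 6 pathway genes were called lower, while 2658 of the 3581 genes called were higher. With the spike-in controls, 33 members and 40 pathway genes were called higher and 0 lower (limma, 0 also at an unadjusted p under 0.05). Over all 14586 tested genes 9043 were called higher there. With the slide row as a block, 3 members were called higher and 4 lower, and 4 pathway genes each way. Of all 14586 tested genes 1587 were called in that fit, 501 of them higher. At an adjusted p under 0.01, 6 members were called higher, beside 988 of all 14586 tested genes. Leaving out 1 pool at a time gave 7 to 15 members higher, 10 to 18 lower, 8 to 13 pathway genes higher and 10 to 16 lower. Among genes called after loess or under the alternative, the sign turned in the spike-in setting alone, with 0.92 for Efna5, 0.54 for Efnb2, 0.15 for Epha1, 0.84 for Ephb3, 0.13 for Ephb4, 0.86 for Ephb6, 0.15 for Ntn4, 0.11 for Plxna2, 0.21 for Plxna4, 0 for Sema3b, 0.2 for Sema4a, 0.39 for Sema4d, 0.97 for Sema4f, 0.57 for Sema4g, 0.43 for Sema7a and 0.6 for Slit2. Genes called in neither also changed sign, in several settings. The spike-in setting adds 0.98 to the median probe by construction, in part through WT pools 2 and 3, the arrays of slide row 2. Pool number as a replicate block gave 14 members higher and 10 lower. Deviations of same-numbered pools correlated at 0.14, 0.07 and 0.20, each pool best with its own number. Deviations from the means of 3 pools are not independent, so these low values cannot show whether pools were paired.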
